A study of Mus musculus with 6 samples.

Results

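Immediate early genes were followed in 6 RNA sequencing libraries made from small pools of injured mouse spinal cord motor neurons. The set held 10 genes chosen by name, *Fos*, *Fosl2*, *Junb*, *Jund*, *Egr1*, *Ier2*, *Ier5*, *Btg2*, *Zfp36* and *Dusp1*, and all 10 were among the 53858 genes counted. All neurons came from wild-type mice whose sciatic nerve had been crushed, and were collected on day 6. The 3 double-labelled pools carried both DiI, a red dye placed distally in the nerve on day 2 to mark neurons whose axons were first to regrow that far, and DiO, a green dye placed proximally on day 0 to mark injured neurons. The 3 DiO-only pools carried DiO without DiI, so both groups were injured and neither is an uninjured control. Each pool held 10 to 15 cells picked by fluorescence, and the labels do not say that pools came from separate animals. The p-values therefore measure only the spread between these libraries, which may be technical. In libraries from pools, fewer cells that express a gene and less RNA per cell cannot be told apart.

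Immediate early genes are transcribed within minutes of a stimulus without new protein synthesis, mostly through the serum response factor, which binds CArG boxes, and CREB, which binds cAMP response elements. *Fos*, *Fosl2*, *Junb* and *Jund* encode subunits of the dimeric transcription factor AP-1, and *Egr1* encodes a zinc finger transcription factor. *Zfp36* and *Btg2* encode proteins that promote mRNA decay, and *Dusp1* encodes a phosphatase that inactivates MAP kinases, so several members dampen the signal that induces them. In axotomised motor neurons the related genes *Jun* and *Atf3* are known for an induction that lasts for days.

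The promoters of *Fos*, *Btg2* and *Dusp1* are shown because they hold elements of this kind, with a site from *Zfp36*, the tested member whose groups lay farthest apart on the log2 scale. The sequences are from RefSeq on GRCm38.p6, and promoter windows of 8 of the 10 members were searched. *Egr1* and *Ier2* were left out of this search, so nothing is said about elements in their promoters. Positions count back from -1, the base before the transcript start. Capitals mark the CArG box, the full cAMP response element TGACGTCA, the shorter element TGACG (which each full element also contains) and TATAAA, searched on both strands of the 250 bases before each start.
Fos, chr12:85473640-85473889, plus strand: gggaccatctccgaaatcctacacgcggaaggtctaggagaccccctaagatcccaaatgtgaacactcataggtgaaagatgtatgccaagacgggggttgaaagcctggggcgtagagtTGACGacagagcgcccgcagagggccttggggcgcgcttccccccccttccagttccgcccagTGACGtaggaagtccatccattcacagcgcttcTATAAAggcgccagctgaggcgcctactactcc
Btg2, chr1:134079156-134079405, minus strand: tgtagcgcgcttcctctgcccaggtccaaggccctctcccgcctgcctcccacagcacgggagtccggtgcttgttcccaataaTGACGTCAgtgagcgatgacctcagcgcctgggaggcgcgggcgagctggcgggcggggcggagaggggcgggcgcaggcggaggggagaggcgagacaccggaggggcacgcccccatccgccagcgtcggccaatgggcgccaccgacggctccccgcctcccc
Dusp1, chr17:26508523-26508722, minus strand: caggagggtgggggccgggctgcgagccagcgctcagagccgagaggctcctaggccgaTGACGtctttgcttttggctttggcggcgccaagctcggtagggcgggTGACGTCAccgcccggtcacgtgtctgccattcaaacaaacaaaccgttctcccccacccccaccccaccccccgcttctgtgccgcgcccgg
Zfp36, chr7:28379267-28379296, minus strand: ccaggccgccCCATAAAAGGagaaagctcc

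The full element TGACGTCA stood at -166 to -159 in *Btg2* and at -143 to -136 in *Dusp1*, and occurred in 1.55% of 32851 promoter windows of the same length. The shorter element TGACG stood at -66 to -62 and at -129 to -125 in *Fos*, at -106 to -102 in *Junb* and, outside its full element, at -191 to -187 in *Dusp1*, and occurred in 17.8% of windows. Among the 8 members searched, which leave out *Egr1* and *Ier2*, a CArG box was found in *Zfp36* only, at -58 to -49. It occurred in 1.47% of all windows. The serum response element for which *Fos* is best known lies farther upstream than this window. TATAAA stood at -33 to -28 in *Fos*, and 12.4% of windows held it. The windows end at RefSeq starts, which can differ from the gene spans given below. That of *Jund*, chr8:70697489-70697738, ends well before the start of its span at 70698949. Those of *Fosl2*, *Zfp36* and *Dusp1* hold annotated exons. A missing element is therefore a statement about the window only. These matches describe letters in a window and were not tested as binding sites.

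Library totals ran from 2997714 to 6563403 counts, and 3 counts corresponded to 0.402 to 1.10 CPM, reads per 1000000 of library size after TMM adjustment. Motor neuron markers, *Chat* and *Isl1* among them, were present in every library, with a summed level of 3270 to 4879 CPM in double-labelled pools and 3436 to 5133 CPM in DiO-only pools. Fewer genes had a count in double-labelled pools, 15657 to 16467, than in DiO-only pools, 17229 to 22118. The first principal component, with 33.8% of the variance, separated double-labelled pool 1 from the remaining 5 libraries. Oligodendrocyte markers summed to 1461 to 4942 CPM in double-labelled pools and to 288.3 to 591.7 CPM in DiO-only pools, and all 11 of these that were tested had a higher estimate in double-labelled pools. Endothelial and pericyte markers summed to 6.22 to 12.6 CPM in double-labelled pools and to 7.44, 26.7 and 50.2 CPM in DiO-only pools 1, 2 and 3. Interneuron markers summed to 5.12 to 41.3 CPM in double-labelled pools and to 872, 13.7 and 118 CPM in DiO-only pools 1, 2 and 3. Summed levels in double-labelled pools and in DiO-only pools were 1068 to 2334 and 868.5 to 1284 CPM for astrocyte markers, 50.9 to 123 and 87.5 to 98.2 CPM for microglia, 482 to 857 and 888 to 978 CPM for Schwann cells and fibroblasts, and 0 to 4.39 and 0.334 to 3.50 CPM for neutrophils and T cells. The astrocyte sums, made up mostly of *Aldoc* and *S100b*, overlapped, but 8 of 10 tested astrocyte markers had a higher estimate in double-labelled pools. The other 2, *S100b* and *Aldh1l1*, had a lower one. Among the 8 higher markers *Slc1a2* stood at 72.6 ± 28.7 CPM in double-labelled pools and 13.3 ± 2.34 CPM in DiO-only pools. *Aqp4* stood at 27.0 ± 8.21 CPM in double-labelled pools and 4.57 ± 3.92 CPM in DiO-only pools, and neither marker overlapped between groups. The part of these other cell types in the results below was not tested, except where a value is given.

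The dyes separate neurons whose axons reached the distal nerve early from other injured neurons. Between these groups, *Zfp36*, *Ier5*, *Fos*, *Egr1* and *Ier2* had few counts in double-labelled pools, with sums of 8, 21, 1, 3 and 31. In DiO-only pools their sums were 96, 78, 86, 14 and 47. *Zfp36* averaged 0.714 ± 0.653 CPM in double-labelled pools and 6.22 ± 4.24 CPM in DiO-only pools, and *Ier5* averaged 1.64 ± 0.843 CPM in double-labelled pools and 5.06 ± 0.349 CPM in DiO-only pools (SD, n = 3 each). *Zfp36* and *Ier5* did not overlap between the groups, and 7.07% of all genes tested were separate in this direction. Every other member overlapped, *Fos* and *Egr1* among them. No member passed the test across all genes. Of 10 members 8 had enough counts for the filter, and 0 of these had an adjusted p under 0.05 with edgeR's quasi-likelihood test, as did 0% of the 12954 genes tested. DESeq2 on the same filtered genes called 76 genes, and no member was among them.

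**Figure D1:**
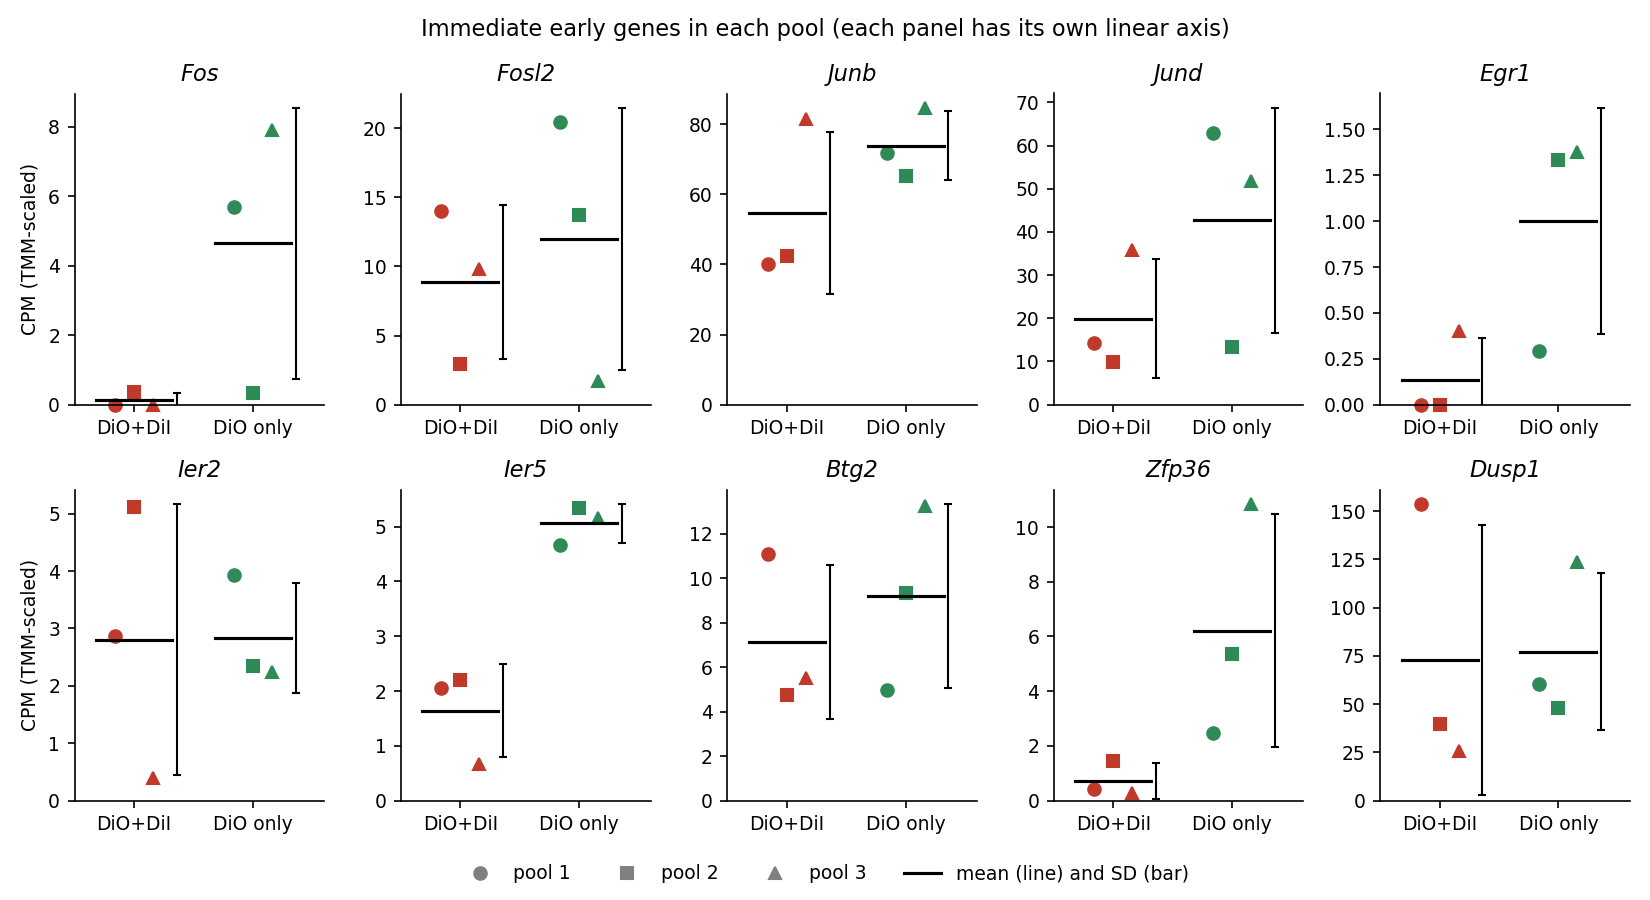
CPM (TMM-scaled, linear axes that differ between panels) of the 10 immediate early genes in each pool, with double-labelled pools left of DiO-only pools, the mean as a line and the SD as a bar (n = 3 each). The groups are separate for Zfp36 and Ier5 only, and for Fos DiO-only pool 2 lies with the double-labelled pools.

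*Fos*, the AP-1 subunit most used as a mark of recent stimulation (ENSMUSG00000021250; mm10 chromosome 12, 85473890 to 85477273, plus strand), had 0, 1 and 0 counts in double-labelled pools 1, 2 and 3, against 39, 1 and 46 counts in DiO-only pools 1, 2 and 3. At this depth a count of 0 allows up to 0.616 CPM in double-labelled pool 1 and up to 0.402 CPM in pool 3. The DiO-only pools were thus split, with 5.69 and 7.90 CPM in pools 1 and 3 and 0.334 CPM in pool 2, next to 0.366 CPM in double-labelled pool 2. Summed counts were 1 in double-labelled pools and 86 in DiO-only pools, a ratio of 0.0121 with an exact 95% interval of 0.000303 to 0.0692 that covers counting error only. *Fos* failed the filter on low counts. Without that filter its unadjusted p was 0.0153, as 2.7% of genes had an unadjusted p under 0.05 with double-labelled pools lower. Its edgeR adjusted p was 0.592, where 0.277% of genes passed, and its adjusted p in DESeq2 on all genes was 0.131, where 0.495% passed. DiO-only pools 1 and 3 were also those with a higher sum of interneuron markers, 872 and 118 CPM against 13.7 CPM in DiO-only pool 2. Most of that sum was *Penk* in DiO-only pool 1, at 803.5 CPM against 0.859 CPM in pool 3. In DiO-only pool 3 most was *Slc6a5*, at 92.45 CPM against 1.02 CPM in pool 1. More genes were also detected in these pools, 21399 and 22118 against 17229 in pool 2. Endothelial and pericyte markers had another order, with 7.44 CPM in DiO-only pool 1, 26.7 CPM in pool 2 and 50.2 CPM in pool 3. The part of these in the level of *Fos* was not tested.

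*Fosl2*, which encodes the AP-1 subunit Fra-2 (chromosome 5, 32135801 to 32157842, plus strand), had 68, 8 and 73 counts in double-labelled pools and 140, 41 and 10 counts in DiO-only pools. Its level was 8.89 ± 5.58 CPM in double-labelled pools and 11.9 ± 9.48 CPM in DiO-only pools, with the lowest value in DiO-only pool 3, at 1.72 CPM. That is the pool with the highest *Fos*, so the Fos-family members did not share an order across pools. The log2 fold change of *Fosl2* was -0.41 ± 0.89 (SE; edgeR adjusted p = 0.987) and 0.22 without DiO-only pool 1.

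*Junb*, an AP-1 subunit that can restrain the activity of Jun (chromosome 8, 84974484 to 84978718, minus strand), had 196, 116 and 608 counts in double-labelled pools and 492, 195 and 492 counts in DiO-only pools. Its level of 40.3, 42.5 and 81.5 CPM in double-labelled pools 1, 2 and 3 stood against 71.8, 65.1 and 84.5 CPM in DiO-only pools. Double-labelled pools 1 and 2 lay below every DiO-only pool, and pool 3 lay inside their range. *Junb* had a log2 fold change of -0.43 ± 0.37 (SE; edgeR adjusted p = 0.970), and of -0.85 without double-labelled pool 3. The 3′ end of *Junb* overlaps *Prdx2* on the other strand, with 1987, 725 and 2827 counts in double-labelled pools and 3366, 1091 and 3224 in DiO-only pools, and reads of the shared part cannot be assigned without strand.

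*Jund*, the AP-1 subunit that many resting cells express (chromosome 8, 70698949 to 70700616, plus strand), had 69, 27 and 267 counts in double-labelled pools and 431, 40 and 301 counts in DiO-only pools. Its level was 19.9 ± 13.9 CPM in double-labelled pools and 42.7 ± 26.0 CPM in DiO-only pools. The groups overlapped through a low DiO-only pool 2, at 13.4 CPM, and a high double-labelled pool 3, at 35.8 CPM. Its fitted log2 fold change was -1.09 ± 0.62 (SE; edgeR adjusted p = 0.902). The antisense gene *Gm11175*, which lies inside *Jund*, had 46, 23 and 192 counts in double-labelled pools and 382, 30 and 280 in DiO-only pools. Counts of this pair followed each other from pool to pool and cannot be told apart, so the value of *Jund* is uncertain.

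*Egr1*, a zinc finger factor induced by activity and growth factors, was near the detection limit. It had 0, 0 and 3 counts in double-labelled pools and 2, 4 and 8 counts in DiO-only pools. Double-labelled pool 3, at 0.402 CPM, lay above DiO-only pool 1, at 0.292 CPM. The ratio of summed counts, 3 in double-labelled pools to 14 in DiO-only pools, was 0.223 with an exact 95% interval of 0.0411 to 0.799 for counting error only. *Egr1* failed the filter, and without it had an edgeR adjusted p of 0.639.

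*Ier5*, a regulator of heat shock factor signalling and phosphatase activity (chromosome 1, 155096361 to 155099636, minus strand), had 10, 6 and 5 counts in double-labelled pools and 32, 16 and 30 counts in DiO-only pools. Levels were 2.06, 2.20 and 0.670 CPM in double-labelled pools and 4.67, 5.34 and 5.15 CPM in DiO-only pools. Every double-labelled pool lay below every DiO-only pool, and the DiO-only pools lay close together. For *Ier5* the log2 fold change was -1.63 ± 1.13 (SE; edgeR adjusted p = 0.950, unadjusted p = 0.173). Leaving out each library in turn gave -1.91 to -1.25.

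*Ier2*, which encodes a small nuclear protein (chromosome 8, 84661331 to 84662852, minus strand), had 14, 14 and 3 counts in double-labelled pools and 27, 7 and 13 counts in DiO-only pools. Its level was 2.80 ± 2.36 CPM in double-labelled pools and 2.84 ± 0.956 CPM in DiO-only pools. Double-labelled pools held both the highest value, 5.12 CPM in pool 2, and the lowest, 0.402 CPM in pool 3. The log2 fold change of -0.06 ± 1.25 (SE; edgeR adjusted p = 0.999) leaves differences of either sign possible. *Ier2*, *Ier5*, *Junb* and *Jund* have coding transcripts of 1 exon, so their counts include no reads across splice junctions.

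*Zfp36*, which encodes tristetraprolin, a protein that binds AU-rich mRNAs and leads them to decay (chromosome 7, 28376784 to 28380253, minus strand), had 2, 4 and 2 counts in double-labelled pools and 17, 16 and 63 counts in DiO-only pools. Levels were 0.411, 1.46 and 0.268 CPM in double-labelled pools and 2.48, 5.34 and 10.8 CPM in DiO-only pools. The groups did not overlap, and DiO-only pool 3 was the highest. The log2 fold change was -3.19 ± 1.30 (SE), with an unadjusted p of 0.0314 and an edgeR adjusted p of 0.765. *Zfp36* was the 1 tested member with an unadjusted p under 0.05, as were 2.63% of all tested genes in the same direction, 3.18% in the other and 5.81% in either. Without DiO-only pool 3 the log2 fold change was -2.49 and the unadjusted p 0.208. That pool also had the highest sum of endothelial and pericyte markers, of which 2 of 11 were at 0, against 7 to 9 of 11 in double-labelled pools. *Cldn5*, a tight junction gene, had 0 counts in every double-labelled pool and 0, 9 and 106 in DiO-only pools. Of the 3 such markers tested, *Rgs5* and *Tek* had a higher estimate in double-labelled pools and *Ly6c1* a lower one. Their summed counts were 85, 41 and 12 in double-labelled pools and 34, 24 and 142 in DiO-only pools. The part of these cells in the level of *Zfp36* was not tested. An antisense gene, *Gm44710*, overlaps *Zfp36*, with 47, 63 and 101 counts in double-labelled pools and 128, 88 and 66 in DiO-only pools, an order unlike that of *Zfp36*.

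*Btg2*, an antiproliferative gene that recruits the mRNA deadenylation machinery (chromosome 1, 134075170 to 134079120, minus strand), had 54, 13 and 41 counts in double-labelled pools and 34, 28 and 77 counts in DiO-only pools. Its level was 7.12 ± 3.47 CPM in double-labelled pools and 9.18 ± 4.14 CPM in DiO-only pools. The groups overlapped, since double-labelled pool 1 stood at 11.1 CPM and DiO-only pool 1 at 4.96 CPM. *Btg2* had a log2 fold change of -0.36 ± 0.76 (SE; edgeR adjusted p = 0.987) and -0.01 without DiO-only pool 3.

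*Dusp1*, a nuclear phosphatase of p38, JNK and ERK (chromosome 17, 26505590 to 26562128, minus strand), had 747, 108 and 192 counts in double-labelled pools and 414, 143 and 719 counts in DiO-only pools. Levels were 154, 39.5 and 25.7 CPM in double-labelled pools and 60.4, 47.8 and 124 CPM in DiO-only pools. Double-labelled pool 1 was the highest of all libraries, while the other double-labelled pools lay below every DiO-only pool. The log2 fold change was -0.08 ± 0.61 (SE; edgeR adjusted p = 0.994). Leaving out 1 library turned the sign, with -1.25 without double-labelled pool 1 (edgeR adjusted p = 0.624) and 0.42 without DiO-only pool 3. The annotated span of *Dusp1* overlaps an exon of *Ergic1* on the other strand, so a part of its reads may be uncertain.

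**Figure D2:**
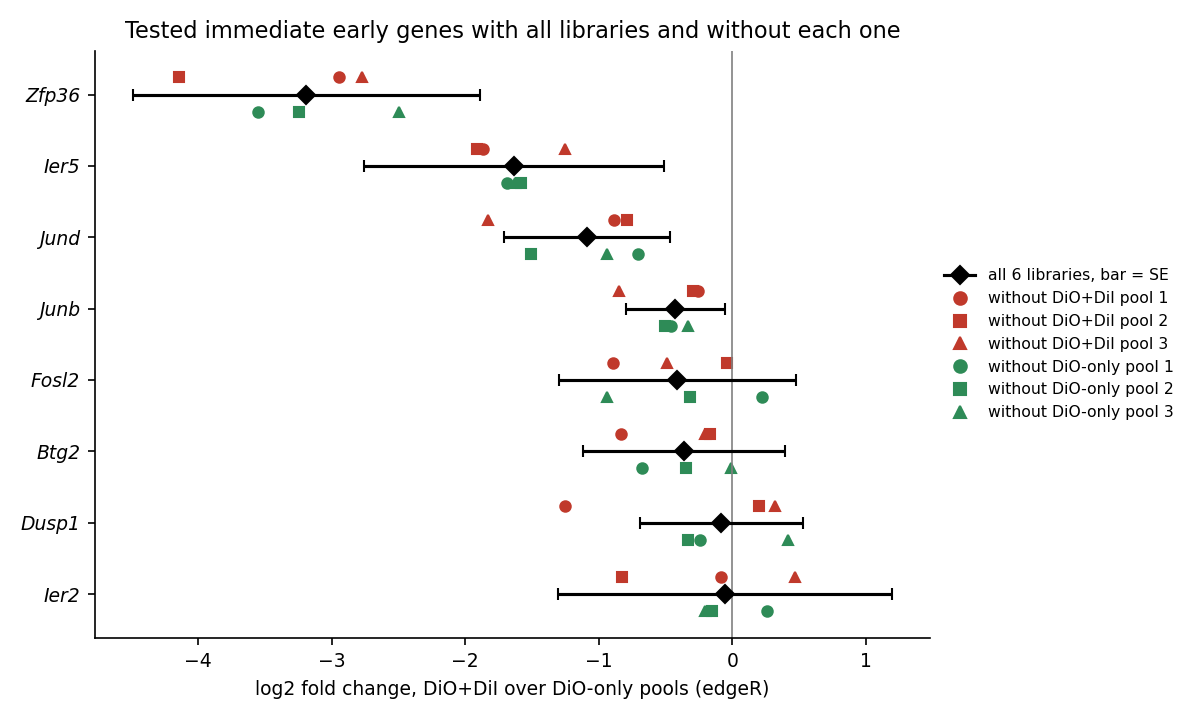
Log2 fold change of double-labelled over DiO-only pools for the 8 tested immediate early genes (edgeR), with all 6 libraries as black diamonds with their SE and without each library as coloured points. Zfp36, Ier5, Jund, Junb and Btg2 keep a value below 0 whichever library is left out, and Fosl2, Dusp1 and Ier2 cross 0.

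Together, the 8 tested members all had a log2 fold change below 0, as did 48.7% of all genes tested, and their median was -0.42 against 0.02 for all genes. This count describes only members that passed the filter, which *Fos* and *Egr1* did not, and supports nothing about the set. Without the filter all 10 members were below 0, as were 61.4% of 28513 genes, and the median of -0.78 stood against -0.35 for all genes. Groups that did not overlap, with double-labelled pools lower, occurred for 2 of the 8 tested members, *Zfp36* and *Ier5*, and for 7.07% of all genes tested. The opposite separation held for 0 of 8 members and 5.86% of genes, either one for 12.9% of genes, and the lower one for 5.4% of all genes with a count. Per library, the median level of the members relative to the DiO-only mean was -1.22 to -1.01 on the log2 CPM scale in double-labelled pools and -0.08 to 0.51 in DiO-only pools. That median includes *Fos* and *Egr1*, and its reference places the DiO-only pools near 0. The same median per library was not computed for all genes. Summed over all members, by contrast, the level was 238, 109 and 160 CPM in double-labelled pools 1, 2 and 3 and 237, 164 and 302 CPM in DiO-only pools. *Junb* and *Dusp1* made up 67.0 to 81.3% of these sums in double-labelled pools and 55.7 to 68.8% in DiO-only pools. The libraries with a lower median were also those with higher oligodendrocyte markers, higher levels of astrocyte markers such as *Slc1a2* and *Aqp4*, and fewer genes detected, and the part of these was not tested. Of the 10 members 8, 9 and 9 had a count in double-labelled pools 1, 2 and 3, and all 10 had one in each DiO-only pool.

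Per kb of exon, *Junb*, *Dusp1* and *Jund* were the most abundant members in both groups. *Junb* stood at 23.8 ± 10.1 CPM per kb in double-labelled pools and 32.1 ± 4.29 in DiO-only pools (SD, n = 3 each), and *Dusp1* at 22.0 ± 21.2 in double-labelled pools and 23.3 ± 12.3 in DiO-only pools. *Jund* stood at 11.96 ± 8.32 CPM per kb in double-labelled pools and 25.6 ± 15.6 in DiO-only pools. These 3 overlapped with each other in both groups. The lowest of their values was 5.92 CPM per kb in double-labelled pools and 8.01 in DiO-only pools, above the highest value of the other 7 members, 4.04 in double-labelled and 4.82 in DiO-only pools. *Btg2* came next, at 2.59 ± 1.26 CPM per kb in double-labelled pools and 3.35 ± 1.51 in DiO-only pools. In DiO-only pools *Fos*, *Ier2*, *Zfp36*, *Ier5* and *Fosl2* lay between means of 1.23 and 1.97 CPM per kb and overlapped. In double-labelled pools *Fos* and *Egr1* were lowest, at 0.0519 ± 0.0898 and 0.0299 ± 0.0518 CPM per kb, and overlapped with each other.

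**Figure D3:**
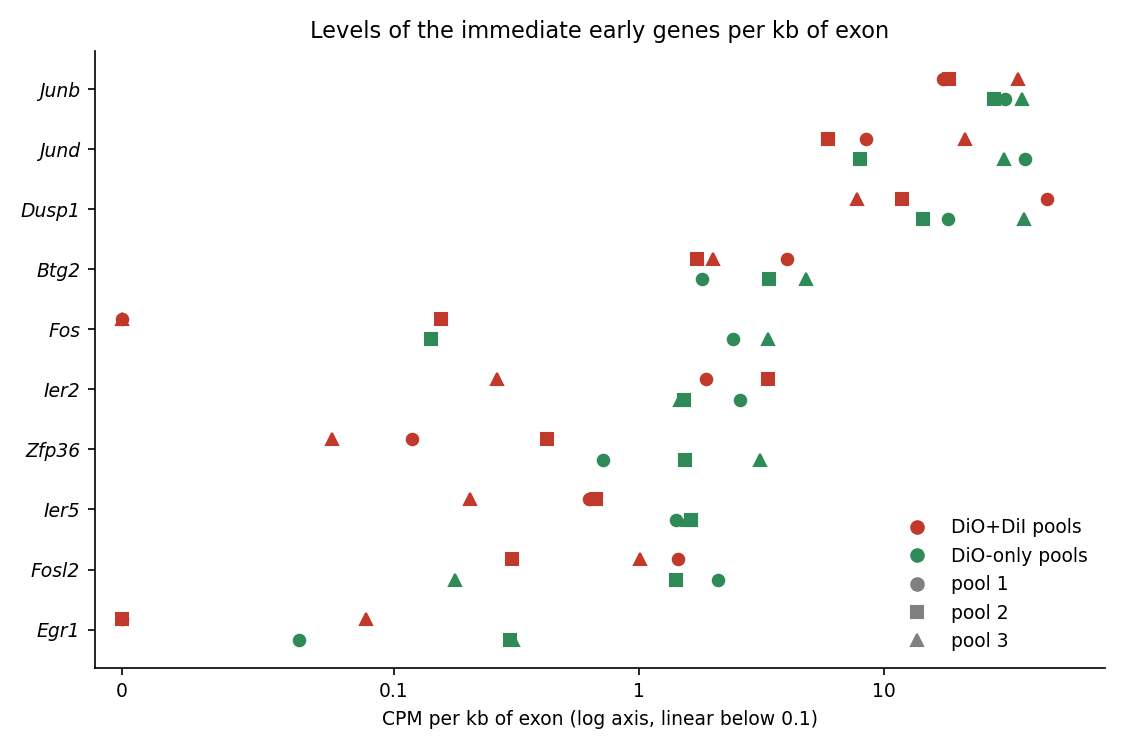
Level of each member in CPM per kb of exon (log axis, linear below 0.1), one point per pool, double-labelled pools in red above DiO-only pools in green. Junb, Jund and Dusp1 lie above the other 7 members in both groups, and Fos, Zfp36 and Ier5 spread downward in double-labelled pools.

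Among the remaining AP-1 and related partners the abundant genes were *Jun* and *Atf3*. *Jun*, the principal partner of Fos, had 105, 124 and 208 CPM in double-labelled pools and 315, 222 and 352 CPM in DiO-only pools, with a log2 fold change of -1.03 ± 0.35 (SE; edgeR adjusted p = 0.692). *Atf3*, a stress-induced factor that pairs with Jun, had 212, 575 and 644 CPM in double-labelled pools and 770, 1305 and 1116 CPM in DiO-only pools (edgeR adjusted p = 0.720). Both genes had groups that did not overlap, with double-labelled pools lower, as did 7.07% of all genes tested. Both were also among the genes of smallest p in their list, a choice that favours such genes. *Mafk*, a small Maf factor, stood at 2.36 ± 1.86 CPM in double-labelled pools and 6.86 ± 2.16 CPM in DiO-only pools. *Atf4*, of the integrated stress response, stood at 74.4 ± 15.1 CPM in double-labelled pools and 55.5 ± 8.79 CPM in DiO-only pools (for *Mafk* and *Atf4*, edgeR adjusted p = 0.949 and 0.957). Of 10 tested AP-1 relatives outside the set 3 were higher and 7 lower, their median log2 fold change was -0.54, and none passed.

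*Fosb*, a Fos paralog, had 8 counts in double-labelled pool 1 and 0 in the other 5 libraries. *Nr4a1*, an orphan nuclear receptor, had 0, 1 and 38 counts in double-labelled pools and 2, 0 and 0 counts in DiO-only pools. *Arc*, of a synaptic protein, had 121, 9 and 88 counts in double-labelled pools and 48, 31 and 43 counts in DiO-only pools (edgeR adjusted p = 0.974). *Npas4*, *Egr2* and *Egr3* had 1, 2 and 0 counts over all 6 libraries. *Fosl1*, which encodes Fra-1, had 1, 0 and 33 counts in double-labelled pools and 10, 10 and 62 in DiO-only pools (edgeR adjusted p = 0.970). The pools in which single genes of this kind stood out differed from gene to gene.

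**Figure D4:**
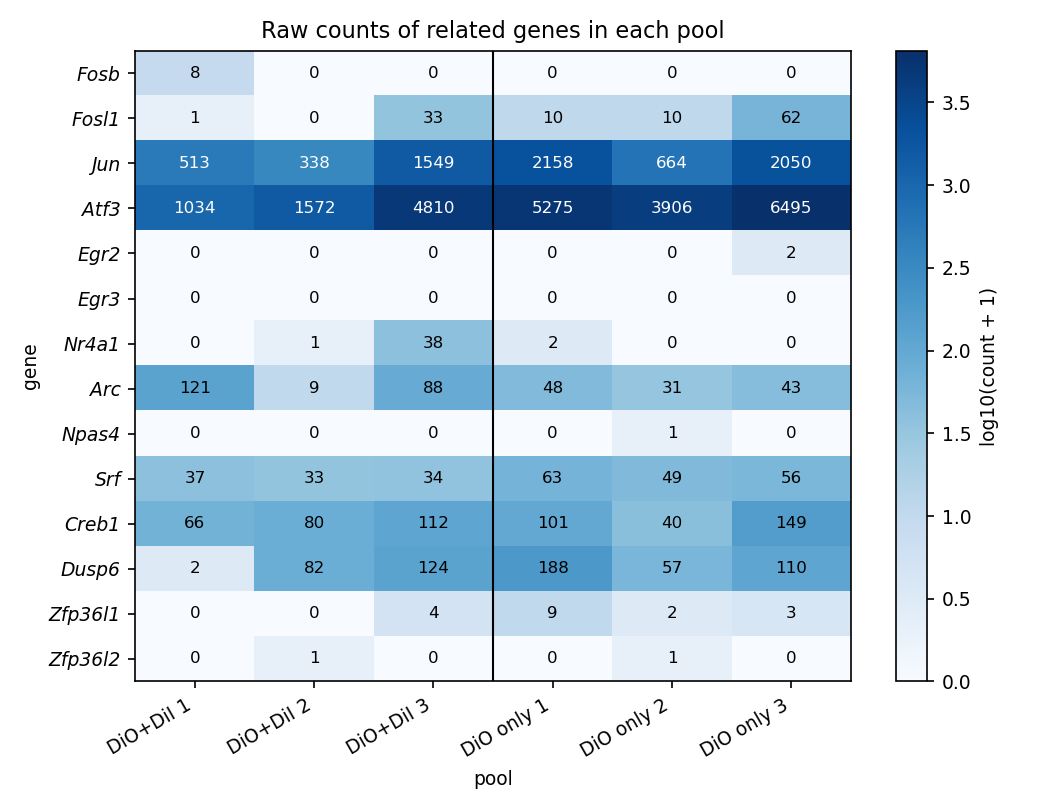
Raw counts of 14 related genes in each pool, double-labelled pools left of the line and DiO-only pools right of it, shaded by log10(count + 1). Jun has at least 338 counts and Atf3 at least 1034 in every pool, and Fosb, Nr4a1, Egr2, Egr3 and Npas4 are at or near 0 in most pools.

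Of 50 other immediate early genes listed 32 were tested, 15 higher and 17 lower, their median log2 fold change was -0.31, and 0 were past the threshold (smallest edgeR adjusted p 0.681). *Gadd45g*, a stress and DNA demethylation factor, had 175, 75.0 and 148 CPM in double-labelled pools and 296, 298 and 233 CPM in DiO-only pools (edgeR adjusted p = 0.681). *Arl4d*, a small GTPase gene, pointed the other way, at 10.9, 7.68 and 6.97 CPM in double-labelled pools and 0.729, 0 and 1.55 CPM in DiO-only pools (edgeR adjusted p = 0.715). The groups of both genes did not overlap, but both were named for their small p, a choice that favours such genes. Of the 32 tested, 5 had double-labelled pools lower without overlap and 2 had them higher. The shares over all genes tested were 7.07% and 5.86%.

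Kinases and factors upstream of the set showed no common direction, with 24 of 43 tested genes lower, 19 higher and a median of -0.04. *Srf*, the serum response factor, stood at 8.08 ± 3.78 CPM in double-labelled pools and 11.7 ± 4.03 CPM in DiO-only pools, and *Creb1* at 19.3 ± 8.69 CPM in double-labelled pools and 17.9 ± 6.71 CPM in DiO-only pools (edgeR adjusted p = 0.978 and 0.992). *Mapk3*, which encodes ERK1, had 157, 148 and 165 CPM in double-labelled pools and 238, 212 and 212 CPM in DiO-only pools without overlap (edgeR adjusted p = 0.899). Such a separation, with double-labelled pools lower, held for 1 of the 43 genes and for 7.07% of all genes tested. *Camk2b*, a calcium/calmodulin kinase subunit, stood at 175 ± 13.8 CPM in double-labelled pools and 57.8 ± 32.1 CPM in DiO-only pools (log2 fold change 1.59 ± 0.40, SE; edgeR adjusted p = 0.476). *Camk4*, a nuclear kinase that acts on CREB, stood at 23.1 ± 13.8 CPM in double-labelled pools and 47.3 ± 17.4 CPM in DiO-only pools (edgeR adjusted p = 0.872).

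Relatives of *Dusp1*, *Zfp36*, *Btg2* and *Egr1* did not pass either. Including *Dusp1*, 6 MAP kinase phosphatases were tested and all 6 had an estimate below 0, with a median log2 fold change of -0.57. *Dusp10*, which acts on p38 and JNK, had 7, 3 and 17 counts in double-labelled pools and 31, 13 and 58 counts in DiO-only pools, and *Dusp16*, a JNK phosphatase, had 8, 0 and 0 counts in double-labelled pools and 16, 9 and 40 counts in DiO-only pools (edgeR adjusted p = 0.887 and 0.918). *Dusp6*, of a cytoplasmic ERK phosphatase, had 2, 82 and 124 counts in double-labelled pools and 188, 57 and 110 counts in DiO-only pools, and *Dusp7* had 5, 1 and 71 counts in double-labelled pools and 35, 11 and 51 counts in DiO-only pools. The *Zfp36* paralogs were scarcely detected, with 4 counts of *Zfp36l1* in double-labelled pools and 14 in DiO-only pools, and 2 counts of *Zfp36l2* in all. Of 21 tested mRNA decay partners 10 were lower and 11 higher, among them the deadenylase subunit gene *Cnot10*, at 38.0 ± 5.60 CPM in double-labelled pools and 21.2 ± 2.40 CPM in DiO-only pools (edgeR adjusted p = 0.860). Its complex partners *Cnot3* and *Cnot8* overlapped between groups, at 26.6 ± 17.1 CPM in double-labelled pools and 13.9 ± 1.65 CPM in DiO-only pools for *Cnot3*, and at 34.2 ± 18.3 CPM in double-labelled pools and 20.2 ± 3.46 CPM in DiO-only pools for *Cnot8* (edgeR adjusted p = 0.931 and 0.936). *Elavl4*, of a neuronal protein that stabilises AU-rich mRNAs, stood at 191 ± 36.0 CPM in double-labelled pools and 263 ± 25.6 CPM in DiO-only pools (edgeR adjusted p = 0.936). The Egr corepressor gene *Nab1* stood at 17.2 ± 6.37 CPM in double-labelled pools and 15.8 ± 2.85 CPM in DiO-only pools (edgeR adjusted p = 0.989).

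The genes whose profile over the 6 libraries was most like the mean profile of the members were *Lpcat3*, a phospholipid acyltransferase gene, *Anxa2*, of a membrane-binding annexin, and *Akirin1*, of a nuclear protein. Their log2 CPM, centred on each gene's mean, differed from that profile by a mean absolute 0.107, 0.108 and 0.125. *Lpcat3* stood at 16.3 ± 2.09 CPM in double-labelled pools and 31.1 ± 7.96 CPM in DiO-only pools, and *Anxa2* at 840 ± 113 CPM in double-labelled pools and 2001 ± 341 CPM in DiO-only pools. *Akirin1* stood at 26.2 ± 2.68 CPM in double-labelled pools and 55.7 ± 11.6 CPM in DiO-only pools. These differences follow from the choice of genes by profile.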

How the data were processed

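Poly(A) RNA of picked, dye-labelled motor neurons was turned into cDNA with the SMART-Seq HT chemistry and amplified in 20 cycles of PCR, per the labels' protocols, which mention no molecular identifiers. The deposited values are raw read counts per Ensembl gene, not normalised by the authors. FastQC, HISAT2 and HTSeq were used with mm10, per the submitters' processing notes. Not given in the sources used here are versions, annotation, strand setting and the treatment of multi-mapping reads. Positions, exon lengths and overlaps are from GENCODE M21 on GRCm38, which matched 53772 of 53858 identifiers (99.8%).

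Libraries were grouped by the dyes in the labels. Counts were filtered with filterByExpr (12954 genes, 99.2% of counts), scaled with TMM and compared in R 4.3.3 with the robust, two-sided quasi-likelihood test of edgeR 4.0.16, with Benjamini-Hochberg adjustment over all tested genes and a threshold of 0.05. The SE of a log2 fold change is its size over the square root of F. The test was tested on simulated data. Alternatives were other scalings and filters, DESeq2 1.42.0, voom in limma 3.58.1, a replicate block, thinning, and leaving out each library. Intervals of ratios are exact binomial and cover counting error only. A count of 0 was read as up to 3 counts.

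The members and lists were chosen with earlier results of these data known. Named genes are the members, up to 4 tested genes of smallest p per list, a fixed set of 14 related genes, and the 3 genes of closest profile. One gene that this rule names is not reported here. Single markers of other cell types and the overlapping genes were named after their values were seen. Figures were drawn with matplotlib 3.10.9.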

Additional observations from a re-analysis of the deposited data

How the results depend on the processing

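No alternative called a member: over all settings their adjusted p was at least 0.131, reached by *Fos* in DESeq2 on all genes. The number of genes called was 0 with edgeR as reported, 79 without a filter, 76 with DESeq2 on filtered genes and 75 on all genes, and 23 with the replicate block, where the cause was not tested. It was 0 with RLE or total-count scaling, a filter of 10 counts in 5 libraries, voom and thinning, and 0 to 0 when each library was left out. At an unadjusted p under 0.05 edgeR held 753 genes. The block rests on replicate numbers that the labels do not call pairs. Batches are mentioned in the labels, but no pool is assigned to one. Whether the replicate numbers follow the batches is therefore unknown, and a batch effect was not tested. The deviations of same-numbered pools from their group means correlated across genes at 0.074, 0.228 and 0.203. Each pool correlated best with its own number, but for DiO-only pool 1 the next value was 0.023, with double-labelled pool 3. These correlations depend on each other, since deviations were taken within groups of 3. They were not tested and do not show that the pools are pairs. Under the filter of 10 counts in 5 libraries 5 members were tested and 5 were lower. The median log2 fold change of the members, -0.42 as reported, was -0.78 with edgeR without a filter and -0.74 with DESeq2 on all genes, which both add *Fos* and *Egr1*. Leaving out each library gave medians from -0.89 to -0.51, with 6 to 9 members lower of the 8 or 9 tested. *Fos* passed the filter in the fits with 9 members, at -7.72 to -4.75, so these medians are of unlike sets. Without DiO-only pools 1 and 3, where 8 members without *Fos* were tested, the medians were -0.57 and -0.64.

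Leaving out each library gave *Dusp1* from -1.25 to 0.42, *Ier2* from -0.83 to 0.47 and *Fosl2* from -0.94 to 0.22. *Dusp1* changed sign to 0.20 and 0.32 without double-labelled pools 2 and 3 and to 0.42 without DiO-only pool 3. *Ier2* changed to 0.47 without double-labelled pool 3 and to 0.26 without DiO-only pool 1, and *Fosl2* to 0.22 without DiO-only pool 1. *Zfp36*, *Ier5*, *Jund*, *Junb* and *Btg2* stayed below 0 in every alternative that tested them. Depth limits *Fos*, *Egr1*, *Zfp36*, *Ier2* and *Ier5*, which had fewer than 100 counts per group.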
